A study of Homo sapiens with 6 samples.

Results

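Metallothioneins and the transcription factor that switches them on, MTF1, were examined in HK2 cells that overexpressed SIRT4. The 8 genes were chosen by symbol, as MT1A, MT1E, MT1F, MT1G, MT1M, MT1X, MT2A and MTF1. No measured value enters that rule, but earlier results of these data were known when it was set. The choice was thus not blind to the data. All 8 had rows among the 38100 genes of the deposited tables, and 6 of them were among the 17720 genes with enough counts to be tested. HK2 is an immortalised line of human proximal tubule epithelial cells. The cells carried a control adenovirus (AdCtrl, 3 samples) or an adenovirus for SIRT4, a sirtuin known from mitochondria (AdSIRT4, 3 samples). All 6 samples were of wild-type genotype and were stimulated with TGF-β1, a profibrotic cytokine, so the series holds no unstimulated cells and no cells without virus. The labels give no dose or time for either agent. The titles name HK2 for all samples, while another label carries a different number after HK in each, and all were taken to be 1 line. The study's checklist states that n stands for technical replicates in vitro, so the p-values measure the spread between these samples only. The comparison addressed here is how excess SIRT4 changes the expression of these genes under TGF-β1.

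Metallothioneins are small, cysteine-rich proteins of the cytosol and nucleus that bind zinc and copper through clusters of thiolates. They buffer zinc, bind toxic metals such as cadmium and take up reactive oxygen species, and the proximal tubule is known for its stores of them. MTF1 is a zinc-finger factor that senses free zinc and binds metal response elements in the promoters of its targets, among which are the metallothioneins and the zinc exporter SLC30A1. Glucocorticoids also induce MT2A and some MT1 genes.

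The metallothionein genes lie side by side on chromosome 16 of GRCh38, and each transcript has 3 exons in the GENCODE v29 annotation. On the plus strand are MT2A (Entrez 4502, chr16:56608199-56609497), MT1E (4493, chr16:56625475-56627112), MT1M (4499, chr16:56632233-56633986), MT1A (4489, chr16:56638666-56640087), MT1F (4494, chr16:56657694-56660698) and MT1X (4501, chr16:56682424-56684196). MT1G (4495, chr16:56666731-56668065) lies on the minus strand. MTF1 (4520, chr1:37809567-37859620, minus strand) has 11 exons. The coding sequences of the 5 metallothioneins that were detected are given to show the cysteines that bind the metal and how alike the genes are. They come from GENCODE v29 transcripts, run 5′ to 3′ from start to stop codon, and have the cysteine codons in capitals.
MT2A: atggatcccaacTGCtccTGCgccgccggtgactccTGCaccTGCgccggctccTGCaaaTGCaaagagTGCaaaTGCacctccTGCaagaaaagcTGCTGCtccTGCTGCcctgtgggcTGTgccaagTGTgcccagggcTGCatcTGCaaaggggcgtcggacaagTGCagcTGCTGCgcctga
MT1E: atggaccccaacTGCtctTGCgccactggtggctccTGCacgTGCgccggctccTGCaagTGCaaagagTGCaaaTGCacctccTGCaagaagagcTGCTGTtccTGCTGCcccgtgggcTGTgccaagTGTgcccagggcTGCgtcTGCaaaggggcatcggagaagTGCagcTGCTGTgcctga
MT1F: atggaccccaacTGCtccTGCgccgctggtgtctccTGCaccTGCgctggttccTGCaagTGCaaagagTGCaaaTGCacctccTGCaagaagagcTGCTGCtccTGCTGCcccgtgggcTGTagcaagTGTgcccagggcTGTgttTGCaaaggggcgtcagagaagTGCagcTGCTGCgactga
MT1X: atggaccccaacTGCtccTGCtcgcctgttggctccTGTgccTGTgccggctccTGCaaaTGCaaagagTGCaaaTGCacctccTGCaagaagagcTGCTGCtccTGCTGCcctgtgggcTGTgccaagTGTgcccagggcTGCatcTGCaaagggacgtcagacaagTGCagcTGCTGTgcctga
MT1M: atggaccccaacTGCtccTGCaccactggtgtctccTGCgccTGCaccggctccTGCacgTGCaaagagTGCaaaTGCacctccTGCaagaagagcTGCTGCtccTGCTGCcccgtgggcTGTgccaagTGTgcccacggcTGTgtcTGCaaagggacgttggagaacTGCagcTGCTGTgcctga

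Each of these sequences is 186 bases long and encodes 61 residues, of which 20 are cysteines (32.8%). MT1A has the same length and cysteine count, and MT1G, with 189 bases and 62 codons, also has 20 cysteines. Between any pair of the 7 metallothioneins the coding sequences were 88.7% to 94.6% identical, with MT1A and MT1E the most alike and MT1F and MT1X the least. The longest run of bases shared by a pair of whole transcripts was between 32 and 96 bases. MT2A and MT1E, the most abundant pair, were 92.5% identical over 186 aligned bases and shared no run longer than 32 bases. How the counting program treated reads that match more than 1 member is not given in the sources used here, so the split of counts between members is uncertain. MT1X also overlaps a non-coding gene on its own strand (AC026461.1) and MTF1 overlaps 1 on the opposite strand (AL929472.4). Whether strand was used in the counting is likewise not given.

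Metal response elements were searched for as the core TGCACNC or TGCGCNC on both strands of the 250 bases before the start site, in RefSeq promoters of GRCh38.p14. The table holds 3 of the 8 listed genes, MT2A, MT1X and MTF1. MT2A had 7 matches, which began 246, 168, 153, 139, 88, 54 and 8 bases before the start. MT1X had 4 matches, at 150, 122, 78 and 53 bases before the start. MTF1 had 0. Among metallothioneins outside the list, MT1H had 8 matches, MT1B had 3 and MT4 had 3. These genes had 0 counts in all 6 samples. MT1H thus had more matches than MT2A without being detected, and a link between the number of matches and expression was not tested. Of 35116 promoters of this length, 24.8% held at least 1 match, 1.58% held 3 or more and 0.12% held 5 or more. A TATAAA motif lay 29 bases before the start of MT2A and 30 before that of MT1X, and 10.7% of the promoters held one. The MT1X promoter is shown up to the first base of the GENCODE exon because it carries all 4 matches, which are in capitals. For MT2A, whose window lies within the first exon of the longer GENCODE transcript, 2 short stretches with 2 matches and 1 match are shown.
MT1X, chr16:56682220-56682423, plus strand: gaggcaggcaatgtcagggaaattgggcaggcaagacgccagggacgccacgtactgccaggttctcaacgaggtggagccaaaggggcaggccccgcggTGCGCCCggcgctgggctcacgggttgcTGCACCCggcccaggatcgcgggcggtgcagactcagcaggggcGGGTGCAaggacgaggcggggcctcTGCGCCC
MT2A, chr16:56608427-56608454, plus strand: cgggTGCGCCCggcccagTGCGCGCggc
MT2A, chr16:56608520-56608546, plus strand: gcggggctttTGCACTCgtcccggctc

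The libraries of AdCtrl replicates 1, 2 and 3 held 53677241, 42102861 and 50190728 counts. Those of AdSIRT4 replicates 1, 2 and 3 held 41537353, 85684748 and 80040053. When AdSIRT4 replicate 1 is left out, as below, both remaining AdSIRT4 libraries are deeper than every AdCtrl library. The part of depth in those fits was not tested. SIRT4 itself was counted 31, 47 and 57 times in AdCtrl replicates 1, 2 and 3 and 1996, 7995 and 6827 times in AdSIRT4 replicates 1, 2 and 3 (log2 fold change 6.36, SE 0.357, edgeR quasi-likelihood test, adjusted p = 0.00801), in keeping with the group labels. Epithelial markers were present, with mean CPM (counts scaled to a common library size with TMM factors) in AdCtrl and AdSIRT4 of 833 and 890 for KRT8 and 233 and 238 for PAX8. CDH1 (0.664 and 0.615 CPM) and PAX2 (1.28 and 1.09 CPM) were close to absent, and so were LRP2, CUBN, AQP1, ANPEP and SLC34A1, which mark the differentiated proximal tubule. The 14 markers of other cell types summed to 34.7 to 48.9 CPM, almost all of it CD68.

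AdSIRT4 replicate 1 stood apart from the other libraries in a way that bears on all of these genes. In this library, short genes had high values and long genes had low ones. Across the 17720 tested genes, the Spearman correlation of gene length with the log2 difference between a sample and the mean of the other 2 of its group was −0.61 in AdSIRT4 replicate 1. It was 0.54 and 0.55 in AdSIRT4 replicates 2 and 3, whose reference includes that library, and between −0.18 and 0.19 in the AdCtrl samples. The 5 detected metallothioneins are very short, at 453 to 487 bases as implied by the deposited counts and FPKM values (fragments scaled to gene length and library depth), whereas MTF1 is long, at 9145 bases. Their GENCODE v29 transcripts differ more, with 450 (MT1X), 690 (MT1F), 704 (MT1E), 786 (MT2A) and 829 bases (MT1M). The implied lengths are used below. In AdSIRT4 replicate 1, the metallothioneins stood 0.79 (MT1E) to 0.97 (MT1X) above the mean of replicates 2 and 3 on the log2 scale, and MTF1 was at −0.94. Over the 207 tested genes under 600 bases the median of this difference was 0.44, with 0.10 and 0.90 quantiles of −0.31 and 1.03. Over the 2278 genes of 8000 bases and more it was −0.58. The log2 fold changes of the listed genes and of related gene lists are therefore given with and without this library.

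**Figure D1:**
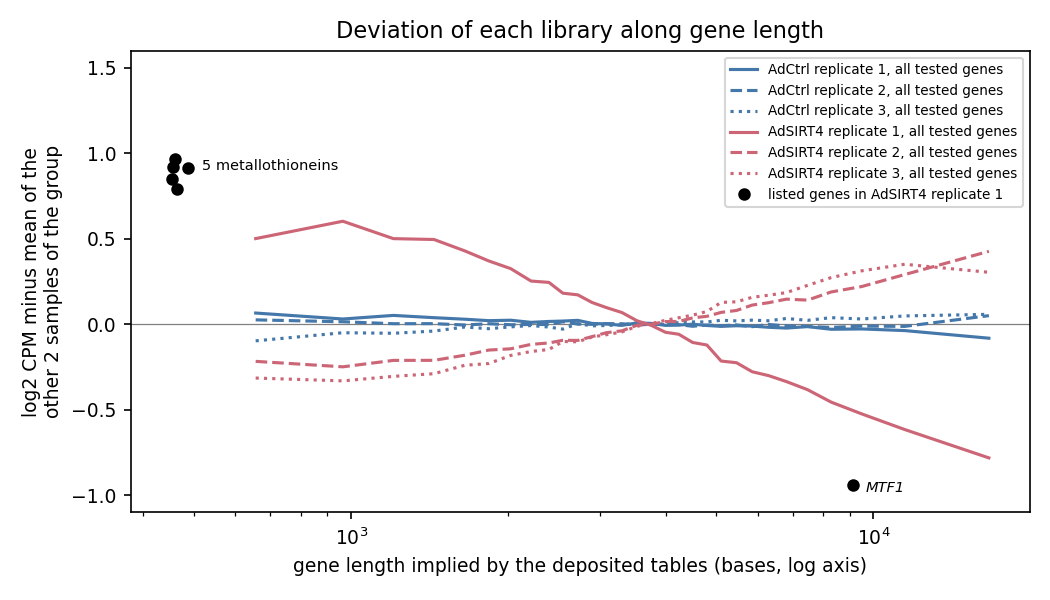
Difference between each library and the other 2 of its group (y axis, log2 CPM) against gene length (x axis, bases, log scale). Lines are medians over bins of all tested genes, and black points are the 5 metallothioneins and MTF1 in AdSIRT4 replicate 1, where the metallothioneins lie at 0.79 to 0.97 and MTF1 at −0.94.

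Expression of the metallothioneins in control cells was dominated by MT2A. On the length-scaled FPKM scale its level was 384 on average in AdCtrl (range 346 to 411, n = 3), rank 128 of 38100 genes. MT1E followed with 77.6 FPKM (74.1 to 80.9, rank 705). MT1F was at 24.1 ± 1.24 FPKM (SD, n = 3), MT1X at 17.4 ± 1.25 FPKM and MT1M at 14.1 ± 1.12 FPKM. MTF1 was far lower, with a mean of 3.77 FPKM and rank 9402. The ranges of neighbours in this order did not overlap in the AdCtrl samples.

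MT1A and MT1G were not detectably expressed. MT1A, an isoform that is inducible by metals, had 3 counts in AdCtrl replicate 3 and 0 in the other 5 samples. MT1G had 0 counts in all 6 samples. The limit that 0 counts leave, set at 3 counts, was 0.0348 to 0.0770 CPM in these libraries and covers counting error only. Of 14 further metallothionein genes and pseudogenes, 5 had rows. MT1B, MT1H, MT1HL1 and MT4 had 0 counts throughout, and MT3, known from brain, had 2 counts in AdCtrl replicate 3 and 2 in AdSIRT4 replicate 3. Among the family members with rows, counts were thus nearly all from MT2A and 4 MT1 genes.

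MT2A, the most widely expressed metallothionein, was at 186.5, 161.3 and 172.8 CPM in AdCtrl replicates 1, 2 and 3 and at 402.7, 197.6 and 228.5 CPM in AdSIRT4 replicates 1, 2 and 3. The groups did not overlap, and AdSIRT4 replicate 1 was by far the highest sample. The means were 174 ± 12.6 CPM and 276 ± 111 CPM (SD, n = 3), and 213 ± 21.8 CPM in AdSIRT4 replicates 2 and 3 alone. The log2 fold change was 0.67 (SE 0.263) and missed the threshold of 0.05 in edgeR after Benjamini-Hochberg adjustment over all tested genes (adjusted p = 0.612, unadjusted p = 0.0383). Without AdSIRT4 replicate 1 the difference was smaller, at 0.29 (SE 0.0742), and passed (edgeR, adjusted p = 0.0428). With 3 samples a group, the exact two-sided permutation test gave p = 0.1, the smallest it allows. In bulk RNA, a change in every cell and a change in part of the cells cannot be told apart.

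MT1E was at 34.4, 37.2 and 36.2 CPM in the AdCtrl samples and at 93.8, 48.7 and 59.6 CPM in AdSIRT4 replicates 1, 2 and 3. The groups were well apart, since the lowest AdSIRT4 sample exceeded the highest AdCtrl sample by more than the whole range of the AdCtrl samples. The means were 35.9 ± 1.43 and 67.4 ± 23.5 CPM (SD, n = 3), and 54.2 ± 7.71 CPM without AdSIRT4 replicate 1. Its log2 fold change of 0.91 (SE 0.232, a fold of 1.87) was larger than that of the other listed genes, and missed the threshold with all 6 samples (edgeR, adjusted p = 0.494, unadjusted p = 0.00596). Without AdSIRT4 replicate 1 MT1E rose by 0.59 on the log2 scale (SE 0.0802, edgeR, adjusted p = 0.00361). It was the 1 listed gene that passed in DESeq2 with all 6 samples (adjusted p = 0.0317). The exact permutation test again gave its smallest p, 0.1.

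MT1F, another of the MT1 isoforms, was at 11.0, 12.2 and 11.7 CPM in AdCtrl and at 28.0, 15.2 and 14.1 CPM in AdSIRT4 replicates 1, 2 and 3. MT1M was at 6.38, 5.98 and 6.56 CPM in AdCtrl and at 14.9, 7.91 and 8.19 CPM in AdSIRT4. For both genes the groups did not overlap, and AdSIRT4 replicates 2 and 3 lay close to each other. MT1F had a log2 fold change of 0.71 (SE 0.263, edgeR, adjusted p = 0.611) with all samples and of 0.33 (SE 0.0833, adjusted p = 0.0382) without AdSIRT4 replicate 1. MT1M had 0.71 (SE 0.256, edgeR, adjusted p = 0.602) and 0.35 (SE 0.101, adjusted p = 0.0640). MT1M therefore missed the threshold in both fits, by a small margin in the latter.

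MT1X was the metallothionein with the smallest fold change in the fits given here. Its values were 7.40, 8.73 and 7.75 CPM in AdCtrl and 17.8, 8.54 and 9.25 CPM in AdSIRT4 replicates 1, 2 and 3. AdSIRT4 replicate 2 fell within the AdCtrl range, so the groups overlapped (exact permutation test, p = 0.2). The log2 fold change was 0.57 (SE 0.286, edgeR, adjusted p = 0.680), and 0.16 (SE 0.104, adjusted p = 0.382) without AdSIRT4 replicate 1.

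**Figure D2:**
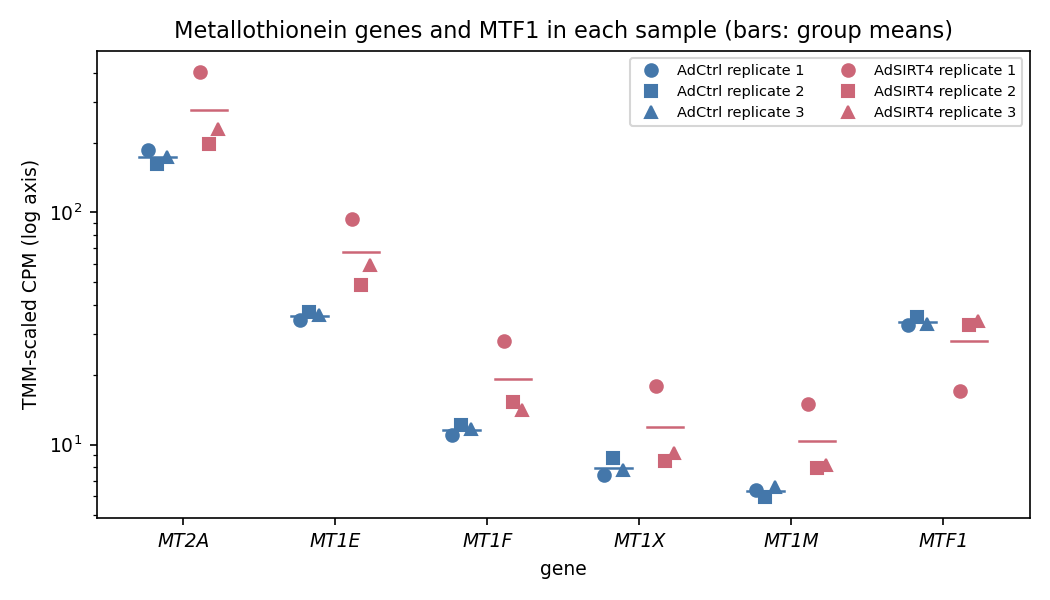
TMM-scaled CPM (y axis, log scale) of the 5 detected metallothioneins and MTF1 in each of the 6 samples, with horizontal bars at the group means. AdSIRT4 replicate 1 (red circles) is the highest sample for each metallothionein, from 402.7 CPM for MT2A to 14.9 CPM for MT1M, and the lowest for MTF1, at 17.1 CPM.

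MTF1, the metal-sensing regulator, did not share this pattern. It was at 32.8, 35.5 and 33.1 CPM in AdCtrl and at 17.1, 32.7 and 34.0 CPM in AdSIRT4 replicates 1, 2 and 3. AdSIRT4 replicates 2 and 3 lay in or next to the AdCtrl range, and replicate 1 was the lowest of all samples. The log2 fold change was −0.27 (SE 0.247, edgeR, adjusted p = 0.773), and −0.024 (SE 0.0648, adjusted p = 0.857) without AdSIRT4 replicate 1. The exact permutation test gave p = 0.4.

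Counted together, the 5 metallothioneins had log2 fold changes above 0 in all 5 cases, with a median of 0.71 against a median of 0.021 over all 17720 genes. Over the 6 samples their log2 CPM had pairwise Pearson correlations of 0.923 (MT1E and MT1X) to 0.988 (MT1M and MT2A). The counts of members below are therefore not counts of independent genes. MTF1 correlated with the 5 genes at −0.834 (MT1E) to −0.947 (MT1X). AdSIRT4 replicate 1 was the highest sample for each metallothionein and the lowest for MTF1, and the correlations were not computed without it. Without AdSIRT4 replicate 1 the median log2 fold change of the 5 metallothioneins was 0.33 against −0.0028 over 18287 genes. With all 6 samples none of the 6 tested members passed the adjusted threshold in edgeR, where 0.0113% of all tested genes were called higher. These were 2 genes, and 1 was called with the replicate number as a block. At an unadjusted p under 0.05, 4 members were higher (MT1E, MT1F, MT1M and MT2A), compared with 4.43% of all tested genes. Without AdSIRT4 replicate 1, 3 of 6 members passed the adjusted threshold (MT1E, MT1F and MT2A), where 3.37% of all genes were called higher. DESeq2 called 1 member with 0.711% of all genes higher. The limma voom fit with sample quality weights called 3 (MT1E, MT1F and MT1M) with 4.74% of all genes higher. The highest AdCtrl sample was below the lowest AdSIRT4 sample for 4 of the 6 members (MT1E, MT1F, MT1M and MT2A), against 9.66% of all tested genes. With AdSIRT4 replicates 2 and 3 alone this also held for those 4, against 21.0%.

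The members were then set against genes of their own implied length. The 207 tested genes under 600 bases had a median log2 fold change of 0.17 with all samples and of −0.12 without AdSIRT4 replicate 1. Of these short genes, 6.28% had no overlap and AdSIRT4 higher, a share that itself includes MT1E, MT1F, MT1M and MT2A. Without that library 5 (2.42%) were called higher, a count that includes MT1E, MT1F and MT2A. Removal of each library's trend along gene length left the metallothioneins with log2 fold changes of 0.37 (MT1X) to 0.73 (MT1E), and MTF1 with −0.19. None of the 6 then passed (edgeR, adjusted p = 0.0972 for MT1E), and the 5 metallothioneins had an unadjusted p under 0.05, against 7.55% of all tested genes in that direction. Removal of the trend together with AdSIRT4 replicate 1 gave 0.71 for MT1E (SE 0.126, edgeR, adjusted p = 0.0231), 0.45 for MT1F (SE 0.0896, adjusted p = 0.0128) and 0.46 for MT1M (SE 0.116, adjusted p = 0.0316). In that fit MT2A was at 0.41 (SE 0.105, edgeR, adjusted p = 0.0621), MT1X at 0.28 (SE 0.113, adjusted p = 0.154) and MTF1 at −0.07 (SE 0.0632). The 3 calls compare with 3.91% of all genes called higher there. The direction of each metallothionein was the same in each of these fits, and their size moved with the library. The part of the length trend in the metallothionein difference was not tested beyond these fits.

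**Figure D3:**
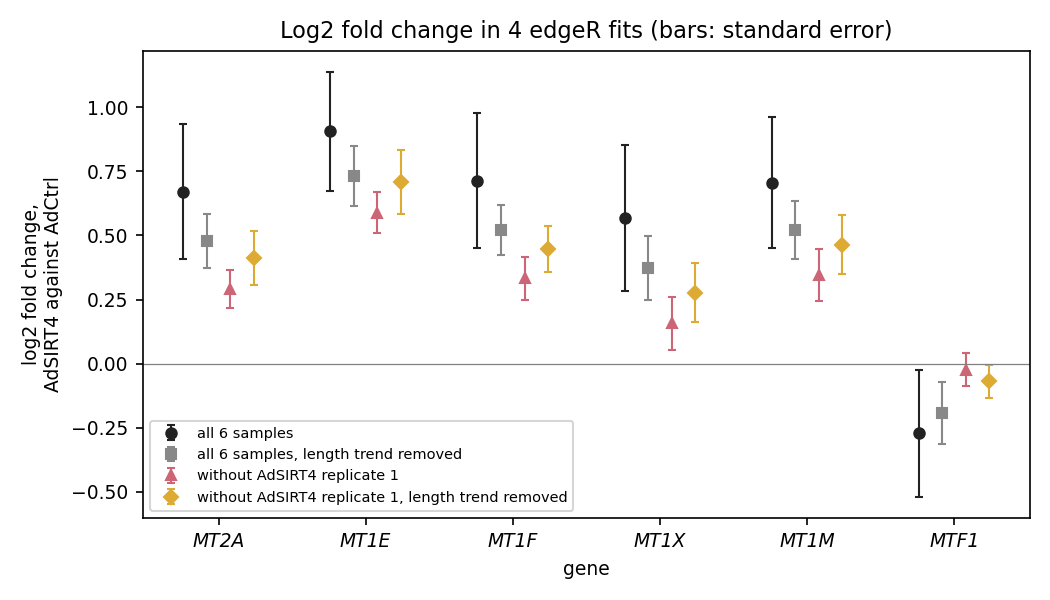
Log2 fold change of AdSIRT4 against AdCtrl (y axis) for the 5 metallothioneins and MTF1 in 4 edgeR fits, with bars for the standard error. MT1E is the highest gene in each fit, at 0.91, 0.73, 0.59 and 0.71, and MTF1 lies below 0 throughout.

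The make-up of the metallothionein pool was also compared, as a measure within each sample over 5 genes of nearly the same implied length. The summed level of the 5 genes was 245.7, 225.4 and 235.0 CPM in AdCtrl and 557.3, 278.0 and 319.7 CPM in AdSIRT4 replicates 1, 2 and 3. MT1E made up 14.0%, 16.5% and 15.4% of their counts in AdCtrl and 16.8%, 17.5% and 18.7% in AdSIRT4. These shares did not overlap, and the difference was 2.37 percentage points (15.3 ± 1.26% and 17.7 ± 0.922%, SD, n = 3, exact permutation test, p = 0.1). Without AdSIRT4 replicate 1 the difference was 2.79 percentage points. MT2A made up 75.9%, 71.6% and 73.5% in AdCtrl and 72.3%, 71.1% and 71.5% in AdSIRT4, where the groups overlapped (exact permutation test, p = 0.2). Within same-numbered pairs the MT2A share was lower in AdSIRT4 in 3 of 3 pairs, with differences of −3.66, −0.49 and −2.06 percentage points, and that of MT1E was higher in 3 of 3. For both genes the exact sign-flip test over pairs gave p = 0.25, the smallest that 3 pairs allow. Since the shares are parts of the same whole, a higher share of MT1E and a lower share of MT2A are not separate results. For each 100 counts of MT2A there were 18.4, 23.1 and 21.0 counts of MT1E in AdCtrl and 23.3, 24.7 and 26.1 in AdSIRT4. The shares of MT1F, MT1X and MT1M overlapped between the groups, with mean differences of 0.024, −0.34 and 0.016 percentage points.

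**Figure D4:**
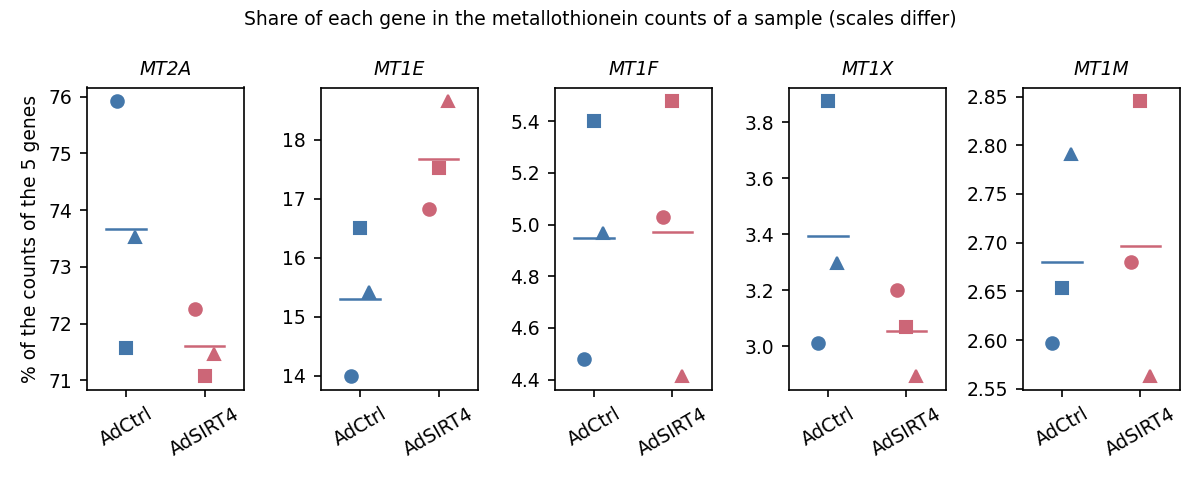
Share of each gene in the summed counts of the 5 metallothioneins (y axis, percent, with a separate scale in each panel that does not start at 0), with bars at the group means. Circles, squares and triangles are replicates 1, 2 and 3, and only for MT1E do the groups not overlap, at 14.0% to 16.5% in AdCtrl and 16.8% to 18.7% in AdSIRT4.

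Genes that share zinc and copper handling with the metallothioneins showed no call in edgeR or DESeq2 with all 6 samples. One of them, CP, had an unadjusted edgeR p under 0.05 and passed in limma voom with sample quality weights (adjusted p = 0.0152). Of 10 zinc exporters 7 were tested, with 5 above and 2 below 0 (4 and 3 without AdSIRT4 replicate 1) and a median log2 fold change of 0.0064 (0.0056 without AdSIRT4 replicate 1), beside 0.021 over all genes. SLC30A1, the plasma membrane zinc exporter and an MTF1 target, was at 65.2, 57.5 and 74.5 CPM in AdCtrl and 69.7, 65.5 and 78.6 CPM in AdSIRT4. These groups overlapped, with a log2 fold change of 0.12 (SE 0.127, edgeR, adjusted p = 0.795) and 0.13 without AdSIRT4 replicate 1. SLC30A1 was higher in AdSIRT4 in all 3 same-numbered pairs, and blocking on that number gave 0.12 (SE 0.101, edgeR, adjusted p = 0.726). SLC30A4 was at −0.18 with all samples and −0.045 without AdSIRT4 replicate 1, and SLC30A7 changed sign, from −0.14 to 0.0056. Of 14 zinc importers 11 were tested, with 7 above and 4 below 0 and a median of 0.043. The signs turned to 3 above and 8 below 0 without AdSIRT4 replicate 1, with a median of −0.092. The 3 importers with the smallest p were SLC39A6 at 0.16, SLC39A10 at −0.33 and SLC39A1 at 0.20 (edgeR, adjusted p = 0.685, 0.702 and 0.717). Without AdSIRT4 replicate 1 they were at 0.15, −0.15 and 0.092. With and without that library the groups did not overlap for these 3, with SLC39A10 lower and the others higher in AdSIRT4. Of all tested genes, 9.66% were higher without overlap, and 21.0% when that library was left out. Since p chose these 3 genes, the lack of overlap is not a separate result.

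Of 18 genes of copper handling 16 were tested, with 9 above and 7 below 0 and a median of 0.13. Here too the signs turned without AdSIRT4 replicate 1, to 4 above and 12 below 0, with a median of −0.071. Ceruloplasmin (CP), the secreted copper ferroxidase, was counted 120, 123 and 108 times in AdCtrl and 104, 334 and 372 times in AdSIRT4. In CPM the groups overlapped, since AdSIRT4 replicate 1, at 2.67 CPM, lay below AdCtrl replicate 2, at 2.90 CPM. CP had a log2 fold change of 0.63 (SE 0.240, edgeR, adjusted p = 0.612) and rose by 0.81 without AdSIRT4 replicate 1 (adjusted p = 0.0207), the 1 call of the list in that fit. SLC31A1, the copper importer, was at −0.25 and ATP7B, a copper-exporting ATPase, at −0.46, and without AdSIRT4 replicate 1 they were at −0.14 and −0.25. ATOX1, a copper chaperone whose gene is also short at 536 bases, was at 20.4, 20.1 and 19.2 CPM in AdCtrl and 34.7, 18.0 and 16.4 CPM in AdSIRT4. It was thus high in AdSIRT4 replicate 1 and below the AdCtrl samples in AdSIRT4 replicates 2 and 3. COX17, of the same list and 518 bases long, was at 21.9, 21.6 and 18.7 CPM in AdCtrl. In AdSIRT4 replicates 1, 2 and 3 it was at 44.5, 19.7 and 19.5 CPM, with replicates 2 and 3 inside the AdCtrl range.

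Genes of the response to glucocorticoids, which are among the inducers of MT2A, lay mostly below 0. The list holds the receptor gene itself, NR3C1, at −0.20, and 9 of its targets. Of these 10 genes 9 were tested, with 2 above and 7 below 0 and a median of −0.21 with and without AdSIRT4 replicate 1. With all 6 samples none passed in edgeR or DESeq2, 3 had an unadjusted edgeR p under 0.05, and 5 passed in limma voom with sample quality weights. The shares over all tested genes were 7.93% at that unadjusted p and 8.94% in limma voom. DUSP1, a phosphatase of MAP kinases, was at 0.60 (SE 0.168, edgeR, adjusted p = 0.509), TSC22D3 at −0.57 (SE 0.183, adjusted p = 0.553) and FKBP5 at −0.33 (SE 0.124, adjusted p = 0.612). TSC22D3, which encodes the glucocorticoid-induced leucine zipper, was at 179.1, 174.7 and 198.6 CPM in AdCtrl and 160.6, 100.7 and 111.6 CPM in AdSIRT4, with no overlap. Without AdSIRT4 replicate 1, TSC22D3 fell by 0.80 (edgeR, adjusted p = 0.000225), CEBPD fell by 0.52 (adjusted p = 0.000719) and ERRFI1 rose by 0.20 (adjusted p = 0.0485), 3 calls in a fit that called 6.71% of all genes. DUSP1 and FKBP5 were at 0.43 and −0.23 in that fit.

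Among 10355 other tested genes with a mean of at least 10 CPM, those with the highest Pearson correlation to the mean standardised log2 CPM of the 5 metallothioneins over the 6 samples were GTPBP4, THUMPD2, TANK, TSN and IER3. The correlations were 0.998 to 0.999, over 6 samples that share the high value of AdSIRT4 replicate 1. These genes are longer than the metallothioneins, at 1416 bases (IER3) to 5323 bases (GTPBP4). Their log2 fold changes were 0.18 (TANK) to 0.46 (IER3) with all samples and 0.088 to 0.22 without AdSIRT4 replicate 1, given without a test since the pattern chose these genes. IER3, an immediate early gene, was at 161.5, 156.9 and 158.8 CPM in AdCtrl and at 282.9, 181.6 and 190.1 CPM in AdSIRT4 replicates 1, 2 and 3.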

How the data were processed

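Poly(A) RNA of 6 HK2 samples was sequenced. Per the labels, the authors' processing notes name fastp 0.21.0, HISAT2 2.1.0, StringTie 2.1.5, DESeq2 1.30.1 and the build hg38. The authors deposited whole-number counts per gene without normalization. The deposited second table, of unnamed unit, was read as FPKM from its values, which fixes the gene lengths used here. Counts were tested with edgeR 4.0.16 (filterByExpr, minimum count 10, TMM, robust quasi-likelihood test) over all genes with Benjamini-Hochberg adjustment and a threshold of 0.05, with the group as the one term. DESeq2 1.42.0 and limma 3.58.1 were alternatives, limma on log2(FPKM + 1) among them. The length trend of each library was removed by lowess offsets. The scripts were tested on simulated data.

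Same-numbered samples of the groups deviated together from their group means to a small degree (correlations 0.159 to 0.178, others −0.188 to 0.0298). The numbers were therefore assumed to pair the samples, as a block in a fit and in the paired test of the shares. This rests on the data alone, since the study text gives no pairing. The part of the length trends in these correlations was not tested. The fit with that block was an alternative. No 2 replicates were copies. The text names all 8 members and the 5 genes most like the metallothioneins. It also names the 3 genes of smallest p in each list of metal or glucocorticoid genes. ATOX1, COX17, CEBPD, ERRFI1, NR3C1 and the cell markers named were added after their values were seen. The members and lists were chosen with earlier results of these data known. No deposited column was left out (0 unmapped).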

Additional observations from a re-analysis of the deposited data

How the results depend on the processing

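No log2 fold change of a listed gene changed its direction. The small differences in the shares of MT1F and MT1M did: leaving out 1 sample at a time moved them from −0.23 to 0.30 and from −0.059 to 0.082 percentage points. The difference in the MT2A share was −0.95 points without AdCtrl replicate 1. Of 108 alternative values of single listed genes, 98 stayed on the side of the threshold they had with all samples in edgeR, and 10 passed it in addition. All 10 came from DESeq2, limma voom with sample quality weights and the fits without AdSIRT4 replicate 1, which called 212 to 1584 genes. The other alternatives called 0 to 12 genes of any kind. A value that stayed in those fits is therefore no sign of a stable result. The number of members that passed was 0 with all samples and remained 0 under the RLE scaling, both other filters on counts, the 3 limma fits on log2 FPKM, the replicate block and the removed length trend. It was 1 in DESeq2, 3 in limma voom with sample quality weights and 3 with the length trend removed and AdSIRT4 replicate 1 left out. Leaving out 1 sample at a time gave 0 to 3 members, 3 without AdSIRT4 replicate 1 and 0 without each of the others. Without an AdCtrl replicate 0 of all genes passed, so SIRT4 itself did not. Without AdSIRT4 replicate 2 or 3 only 1 gene passed. The 0 members in those fits therefore cannot decide whether the members changed.

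The number of all genes that passed was 2, and 212 in DESeq2, 5 with every gene of at least 1 count, 4 with at least 10 counts in every sample, 7 in limma on log2(FPKM + 1) and on log2(FPKM + 0.1), 5 in limma with a mean FPKM of at least 1, 12 with the length trend removed, 1584 in limma voom with sample quality weights and 1387 with the length trend removed and AdSIRT4 replicate 1 left out. With the replicate block it was 1, and 6 with the length trend removed as well, and the replicate block changed no call on a listed gene. With that block the log2 fold changes were 0.85 for MT1E (SE 0.213), 0.60 for MT2A (SE 0.188) and 0.65 for MT1F (SE 0.237). They were 0.65 for MT1M (SE 0.211), 0.49 for MT1X (SE 0.264) and −0.33 for MTF1 (SE 0.207). The paired test of the shares was chosen after seeing the data, as were the shares from FPKM and those with 1 sample left out. Leaving out 1 sample at a time gave 0 to 1227, the latter without AdSIRT4 replicate 1. Without AdCtrl replicate 1, 2 or 3 edgeR called 0 genes, and 668, 839 and 752 had an unadjusted p under 0.05. Beyond AdSIRT4 replicate 1 the cause of these changes was not tested. With 3 samples a group, a single exact permutation test cannot fall below p = 0.1.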
